A study of Mus musculus with 550 samples.

Results

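Aldo-keto reductases were followed in 7 mouse organs after a single dose of fumaric acid esters, with Akr1b8 as the leading gene. 9 member genes were named: Akr1b8, Akr1b7, Akr1b3, Akr1a1, Akr1c12, Akr1c13, Akr1c14, Akr1c19 and Akr7a5. A gene was used where a probe set of the array was annotated to that gene alone, and the probe set with the highest mean over the arrays of an organ stood for it. 7 of the 9 genes had such a probe set, out of 17097 genes on the array, and Akr1b7 and Akr1b3 were not analysed here. No filter on low values was applied, so all 7 were tested in every organ.

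Aldo-keto reductases use NADPH to reduce aldehydes and ketones, including products of lipid peroxidation, retinal, sugars and steroids, to alcohols. Akr1b8 belongs to the aldose reductase-like group and takes long-chain and unsaturated aldehydes, while the Akr1c genes lie together on mouse chromosome 13 and code for hydroxysteroid dehydrogenases and related reductases. Several aldo-keto reductase genes are among the known targets of NRF2, a transcription factor that is released from its inhibitor KEAP1 when electrophiles such as fumarate esters modify KEAP1, and that then binds antioxidant response elements.

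C57BL/6 mice received vehicle (hydroxypropyl methylcellulose), dimethyl fumarate (DMF) at 100 mg/kg, DMF at 179.2 mg/kg, mixed calcium, magnesium and zinc salts of monoethyl fumarate (MEF) at 79.2 mg/kg, or the lower DMF dose together with the MEF salts. Organs were taken 6 or 12 h later, and a naive group was taken at 12 h only. The labels give no age. The titles name the combination, whereas the source names of those samples give DMF alone, and the titles were followed. Jejunum, kidney, spleen, mesenteric and inguinal lymph nodes, brain and whole blood were measured on 550 arrays in 77 groups of 3 to 8 animals, 1 array for each animal and organ. Below, DMF 100, DMF 179.2, MEF salts and DMF plus MEF name the dosed groups, and a run of 4 values follows that order.

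Values were the deposited log2 levels. A change is the difference from the vehicle group of the same organ and time, ± SE, and was called where limma's Benjamini-Hochberg adjusted p over all 17097 genes fell below 0.05. Levels of different organs, and of different probe sets, were not compared. p-values measure the spread between animals. In whole-organ RNA, a change in the number of cells of a type and a change in RNA per cell cannot be told apart.

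Each organ expressed its defining markers: the mean of 6 enterocyte markers was 11.05 to 13.07 on jejunum arrays, that of 3 kidney proximal tubule markers was 11.25 to 12.01 on kidney arrays, that of 5 neuron markers was 10.84 to 11.72 on brain arrays, that of 3 erythroid markers was 13.43 to 14.04 in blood, and that of 4 B cell markers was 9.23 to 10.53 in spleen and nodes. Some arrays stood apart. In the jejunum at 12 h, 3 of 8 vehicle arrays and 1 of 8 DMF 100 arrays carried Hox genes of the distal intestine, and the mean of the 2 ileum markers ranged from 3.35 to 12.49 among the vehicle arrays. At 12 h 1 vehicle kidney carried adrenal cortex markers at a mean of 7.62, against 3.99 on vehicle replicate 1 and 3.13 to 3.41 on the other kidney arrays of that time. Over both times, 20 spleen arrays carried pancreatic acinar genes or albumin. Results that rest on these arrays are given with and without them, for the spleen in part as counts of calls alone. Spleen comparisons with naive mice, and some between dosed groups, are given with them only. Dim probe sets often shared 1 repeated value on many arrays of an organ and time, such as 5.47 for Akr1b8 on 6 of 39 kidney arrays at 12 h.

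Promoter windows of 5 of the genes are shown because Akr1b8, Akr1c19, Akr1c13 and Akr1c12 moved in the same direction in the jejunum while Akr1c14 of the same cluster was not called there. The windows are from RefSeq (GRCm38.p6), run from 250 bases before to 50 bases after the gene start, and are written 5′ to 3′ on the gene's strand. All 7 measured members matched an entry. Capitals mark matches to TGANNNNGC, a loose form of the core of the antioxidant response element, searched on both strands. Akr1b8 lies at chr6:34353896-34354195 (plus strand), Akr1c19 at chr13:4233490-4233789 (plus), Akr1c13 at chr13:4190937-4191236 (plus), Akr1c12 at chr13:4279350-4279649 (minus) and Akr1c14 at chr13:4059341-4059640 (plus).
Akr1b8: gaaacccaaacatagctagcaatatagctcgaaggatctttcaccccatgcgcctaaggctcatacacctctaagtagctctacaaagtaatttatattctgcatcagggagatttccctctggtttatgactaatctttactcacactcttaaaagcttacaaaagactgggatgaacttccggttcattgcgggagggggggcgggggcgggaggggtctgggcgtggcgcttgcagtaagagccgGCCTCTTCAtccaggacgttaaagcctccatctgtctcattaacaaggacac
Akr1c19: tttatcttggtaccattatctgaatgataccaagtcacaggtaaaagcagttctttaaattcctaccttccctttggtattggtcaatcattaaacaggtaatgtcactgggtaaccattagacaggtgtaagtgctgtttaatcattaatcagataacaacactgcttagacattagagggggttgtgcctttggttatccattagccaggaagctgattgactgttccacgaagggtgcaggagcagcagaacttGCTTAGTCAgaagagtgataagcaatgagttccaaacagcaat
Akr1c13: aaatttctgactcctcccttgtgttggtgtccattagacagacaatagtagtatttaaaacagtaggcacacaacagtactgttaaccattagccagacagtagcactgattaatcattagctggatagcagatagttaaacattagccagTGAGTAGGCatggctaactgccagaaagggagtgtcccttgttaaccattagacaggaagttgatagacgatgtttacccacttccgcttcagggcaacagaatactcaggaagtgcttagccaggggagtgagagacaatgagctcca
Akr1c12: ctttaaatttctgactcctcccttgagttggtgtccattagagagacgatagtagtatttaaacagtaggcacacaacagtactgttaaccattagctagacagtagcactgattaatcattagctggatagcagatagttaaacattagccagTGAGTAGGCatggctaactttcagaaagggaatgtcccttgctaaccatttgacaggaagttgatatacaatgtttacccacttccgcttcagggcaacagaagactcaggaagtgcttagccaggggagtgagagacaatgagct
Akr1c14: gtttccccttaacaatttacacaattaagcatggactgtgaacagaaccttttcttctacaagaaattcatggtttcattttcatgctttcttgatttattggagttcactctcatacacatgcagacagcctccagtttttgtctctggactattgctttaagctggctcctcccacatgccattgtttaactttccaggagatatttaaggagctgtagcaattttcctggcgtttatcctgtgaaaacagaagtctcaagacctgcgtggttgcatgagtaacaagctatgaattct
The Akr1b8 match spans bases 249 to 257 of its window and reads TGAAGAGGC on the other strand. The Akr1c19 match spans bases 258 to 266, reads TGACTAAGC on the other strand, and is the only one of the 4 that also fits the narrower form TGACNNNGC. Akr1c12 and Akr1c13 share the match TGAGTAGGC, at bases 155 to 163 and 152 to 160. These windows were nearly the same sequence, with 95.9% identity over the aligned bases, against 83.4% for Akr1c13 with Akr1c19 and 82.4% for Akr1c12 with Akr1c19. Akr1c14 stood at 77.8% with Akr1c12, 73.3% with Akr1c13 and 71.8% with Akr1c19. Gaps were left out, with 296 aligned bases for Akr1c12 with Akr1c13 and 227 to 241 for the other pairs. Windows of Akr1c14, Akr1a1 and Akr7a5 held no match. The motif is common: 41.3% of 32851 RefSeq windows of this length held TGANNNNGC and 12.4% held TGACNNNGC, so a match describes the letters and no more.

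**Figure D1:**
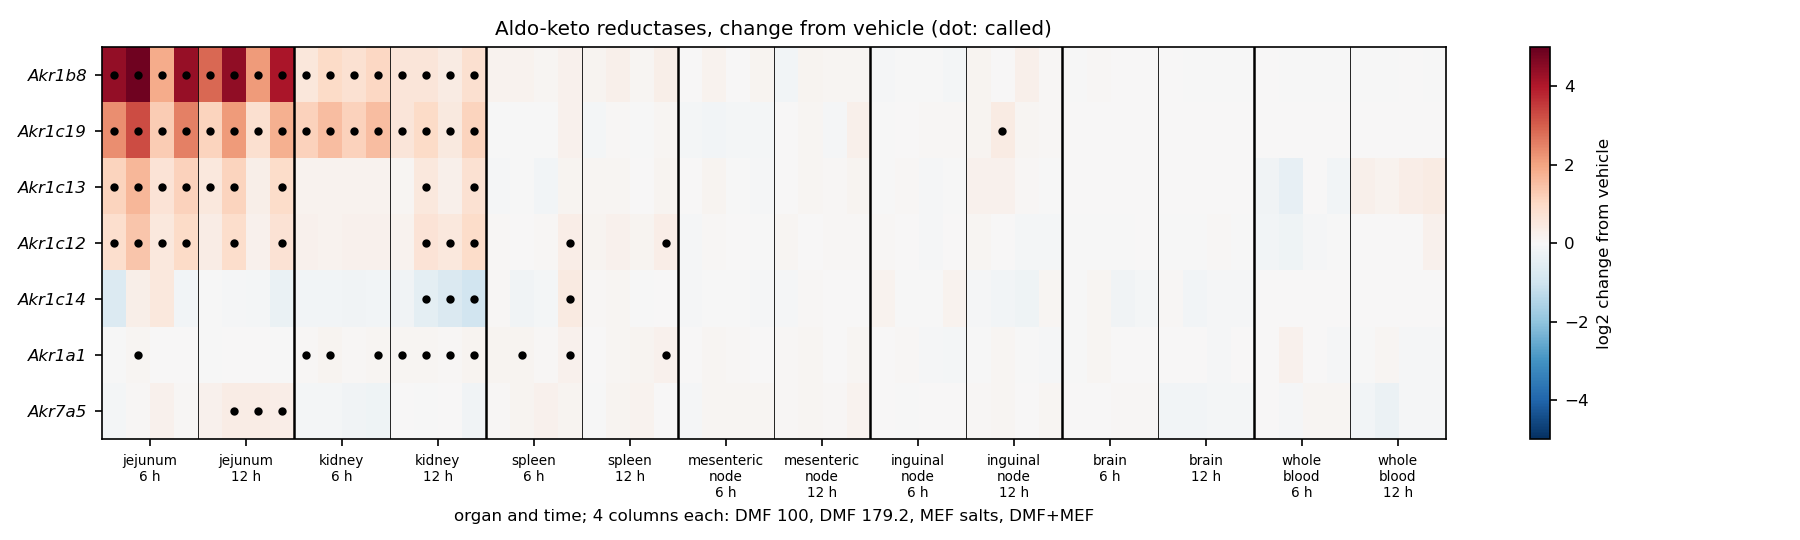
Log2 change from vehicle (colour) of the 7 measured genes (rows) in all 56 comparisons, ordered by organ and time, with a dot where limma's adjusted p was below 0.05. Red fills the Akr1b8 and Akr1c19 rows in jejunum and kidney, blue marks Akr1c14 in the kidney at 12 h, and the remaining 5 organs hold 7 dots in 280 comparisons.

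Akr1b8 rose in the jejunum in all 4 dosed groups at both times, by 3.64- to 28.8-fold, and no dosed array overlapped the vehicle arrays. At 6 h the 8 vehicle arrays had a lowest level of 4.88, a median of 5.70 and a highest level of 6.58. The 4 arrays of DMF 100 read 9.98, 9.47, 10.39 and 10.36, and the 8 of DMF 179.2 ran from 9.76 over a median of 10.63 to 10.90. Every array of both DMF doses was above the highest vehicle array. The 5 arrays of MEF salts read 7.25, 8.16, 7.50, 7.50 and 7.16, and the 5 of DMF plus MEF read 10.23, 9.50, 9.96, 10.23 and 10.11. The MEF arrays lay between vehicle and all arrays given DMF, with no overlap on either side. The changes were 4.40 ± 0.31 (21.2-fold, adjusted p = 1.95e-17), 4.85 ± 0.25 (28.8-fold, 6.42e-25), 1.86 ± 0.29 (3.64-fold, 0.000188) and 4.36 ± 0.29 (20.5-fold, 4.49e-19).

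At 12 h vehicle Akr1b8 ran from 4.03 over a median of 4.48 to 5.76 (n = 8), and naive from 5.26 over 5.75 to 5.88 (n = 7). DMF 100 ran from 6.82 over 7.41 to 9.39 (n = 8), and DMF 179.2 from 8.57 over 9.15 to 9.96 (n = 8). MEF salts ran from 6.15 over 6.91 to 7.61 (n = 7), and DMF plus MEF from 8.44 over 8.77 to 9.49 (n = 8). Every dosed array was above every vehicle and every naive array. The changes were 2.87 ± 0.25 (7.31-fold, adjusted p = 7.57e-13), 4.42 ± 0.25 (21.5-fold, 3.97e-22), 2.13 ± 0.26 (4.39-fold, 2.69e-07) and 4.08 ± 0.25 (17-fold, 2.84e-20). Without the 4 arrays with Hox genes they were 2.70, 4.23, 1.94 and 3.89, and all 4 were still called. When only the groups compared were fitted, the MEF change at 12 h missed the threshold (adjusted p = 0.0769).

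**Figure D2:**
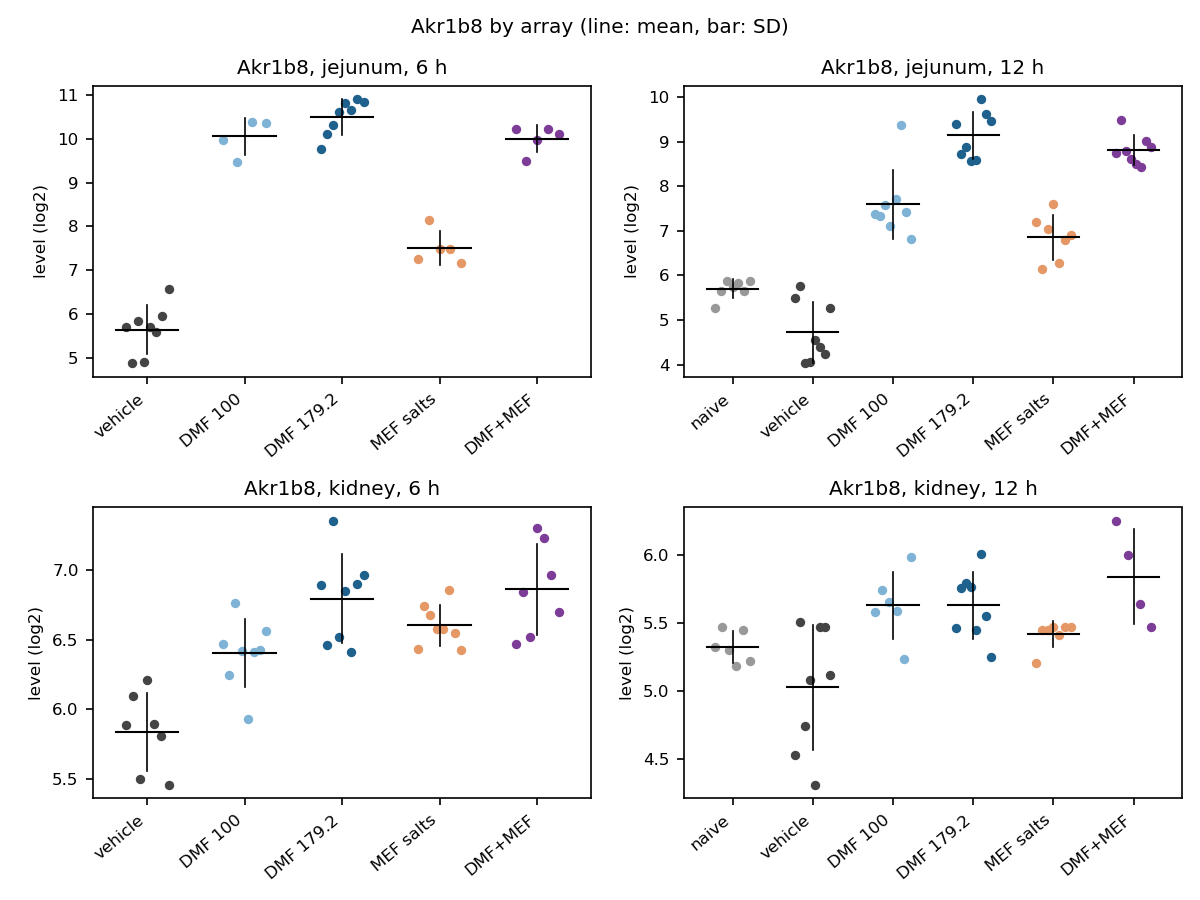
Akr1b8 level (log2, vertical axis) by group in jejunum and kidney at 6 and 12 h; points are arrays, horizontal lines group means and vertical bars SD. In both jejunum panels all dosed arrays lie above all vehicle arrays, and in the kidney at 12 h every dosed group overlaps vehicle.

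Akr1c19, a member of the chromosome 13 cluster, rose in the jejunum in all 4 groups as well, by 2.42- to 9.69-fold at 6 h. The 8 vehicle arrays at 6 h ran from 7.90 over a median of 9.03 to 9.62. DMF 100 read 10.992, 11.002, 11.052 and 11.965, and DMF 179.2 ran from 11.92 over 12.20 to 12.55 (n = 8). These groups were clear of vehicle. MEF salts read 9.75, 9.42, 10.58, 10.61 and 10.65, and DMF plus MEF read 11.46, 11.62, 11.57, 11.85 and 10.82. Of these groups, MEF salts overlapped vehicle through its lowest array and DMF plus MEF did not. The changes were 2.33 ± 0.24 (5.02-fold), 3.28 ± 0.20 (9.69-fold), 1.27 ± 0.23 (2.42-fold, adjusted p = 0.0012) and 2.54 ± 0.23 (5.80-fold).

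At 12 h Akr1c19 ran from 8.29 over 8.66 to 9.50 in vehicle (n = 8) and from 8.15 over 8.46 to 9.10 in naive mice (n = 7). DMF 100 ran from 9.50 over 9.73 to 10.68, and DMF 179.2 from 10.65 over 10.85 to 11.12 (n = 8 each). MEF salts ran from 9.07 over 9.32 to 10.24 (n = 7), and DMF plus MEF from 10.12 over 10.41 to 11.26 (n = 8). DMF 179.2 and DMF plus MEF were clear of vehicle, while the lowest DMF 100 array and several MEF arrays were not. The changes were 1.10 ± 0.20 (2.14-fold, adjusted p = 0.00105), 2.13 ± 0.20 (4.39-fold, 1.03e-12), 0.79 ± 0.21 (1.73-fold, 0.041) and 1.76 ± 0.20 (3.39-fold, 1.17e-09). Without the Hox arrays the MEF change was 0.69 and was not called (adjusted p = 0.357).

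Akr1c13, which with Akr1c12 is known from the gastrointestinal tract, rose in all 4 groups at 6 h, by 1.60- to 3.18-fold. Vehicle ran from 9.77 over 10.14 to 10.57 (n = 8), and DMF 179.2 from 11.47 over 11.76 to 12.05 (n = 8). DMF 100 read 11.08, 11.07, 11.14 and 11.68, and DMF plus MEF read 11.34, 11.33, 11.31, 11.49 and 10.88. All of these arrays were above the vehicle arrays. MEF salts read 10.60, 10.33, 10.97, 10.97 and 11.09, with 1 array inside the vehicle range. The changes were 1.12 ± 0.16 (2.18-fold), 1.67 ± 0.13 (3.18-fold), 0.68 ± 0.15 (1.60-fold, adjusted p = 0.00972) and 1.15 ± 0.15 (2.22-fold).

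At 12 h Akr1c13 ran from 9.79 over 10.00 to 10.31 in vehicle and from 9.55 over 9.84 to 10.39 in naive mice. DMF 100 ran from 10.31 over 10.47 to 11.11, DMF 179.2 from 10.89 over 11.07 to 11.49, MEF salts from 9.98 over 10.12 to 10.81, and DMF plus MEF from 10.66 over 10.79 to 11.43. The 8 arrays each of DMF 179.2 and DMF plus MEF did not overlap vehicle. Changes of 1.13 ± 0.13 (DMF 179.2, adjusted p = 1.42e-09) and 0.91 ± 0.13 (DMF plus MEF, 1.33e-06) were called. The DMF 100 change of 0.52 ± 0.13 passed the threshold (adjusted p = 0.037), but not without the Hox arrays (0.50, adjusted p = 0.189) or with the animal's place in the numbering as a covariate (0.43, adjusted p = 0.15). The MEF change was 0.29 and was not called.

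Akr1c12 rose in all 4 groups at 6 h as well, by 1.43- to 2.58-fold. Its vehicle arrays at 6 h ran from 10.51 over 10.97 to 11.19 (n = 8), and its DMF 179.2 arrays from 12.13 over 12.34 to 12.52 (n = 8). DMF 100 read 11.70, 11.73, 11.81 and 11.98, and DMF plus MEF read 12.07, 11.93, 11.99, 12.12 and 11.52. None of these arrays overlapped vehicle. MEF salts read 11.24, 11.12, 11.56, 11.73 and 11.75, with the second array inside the vehicle range. The changes were 0.84 ± 0.12 (1.79-fold), 1.37 ± 0.10 (2.58-fold), 0.51 ± 0.12 (1.43-fold, adjusted p = 0.0112) and 0.96 ± 0.12 (1.94-fold). The MEF call was lost without replicate 81 (0.45, adjusted p = 0.0538) or replicate 82 (0.45, adjusted p = 0.109), and that of Akr1c13 without replicate 82 (0.60, adjusted p = 0.0896). When only the groups compared were fitted, the 6 h MEF calls of Akr1c12, Akr1c13 and Akr1c19 were all lost. At 12 h Akr1c12 changed by 0.87 in DMF 179.2 and 0.72 in DMF plus MEF, both called and clear of vehicle, and by 0.37 and 0.20 in DMF 100 and MEF salts, neither called. A second probe set of Akr1c12 gave 0.64, 1.19, 0.47 and 0.80 at 6 h, all called.

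**Figure D3:**
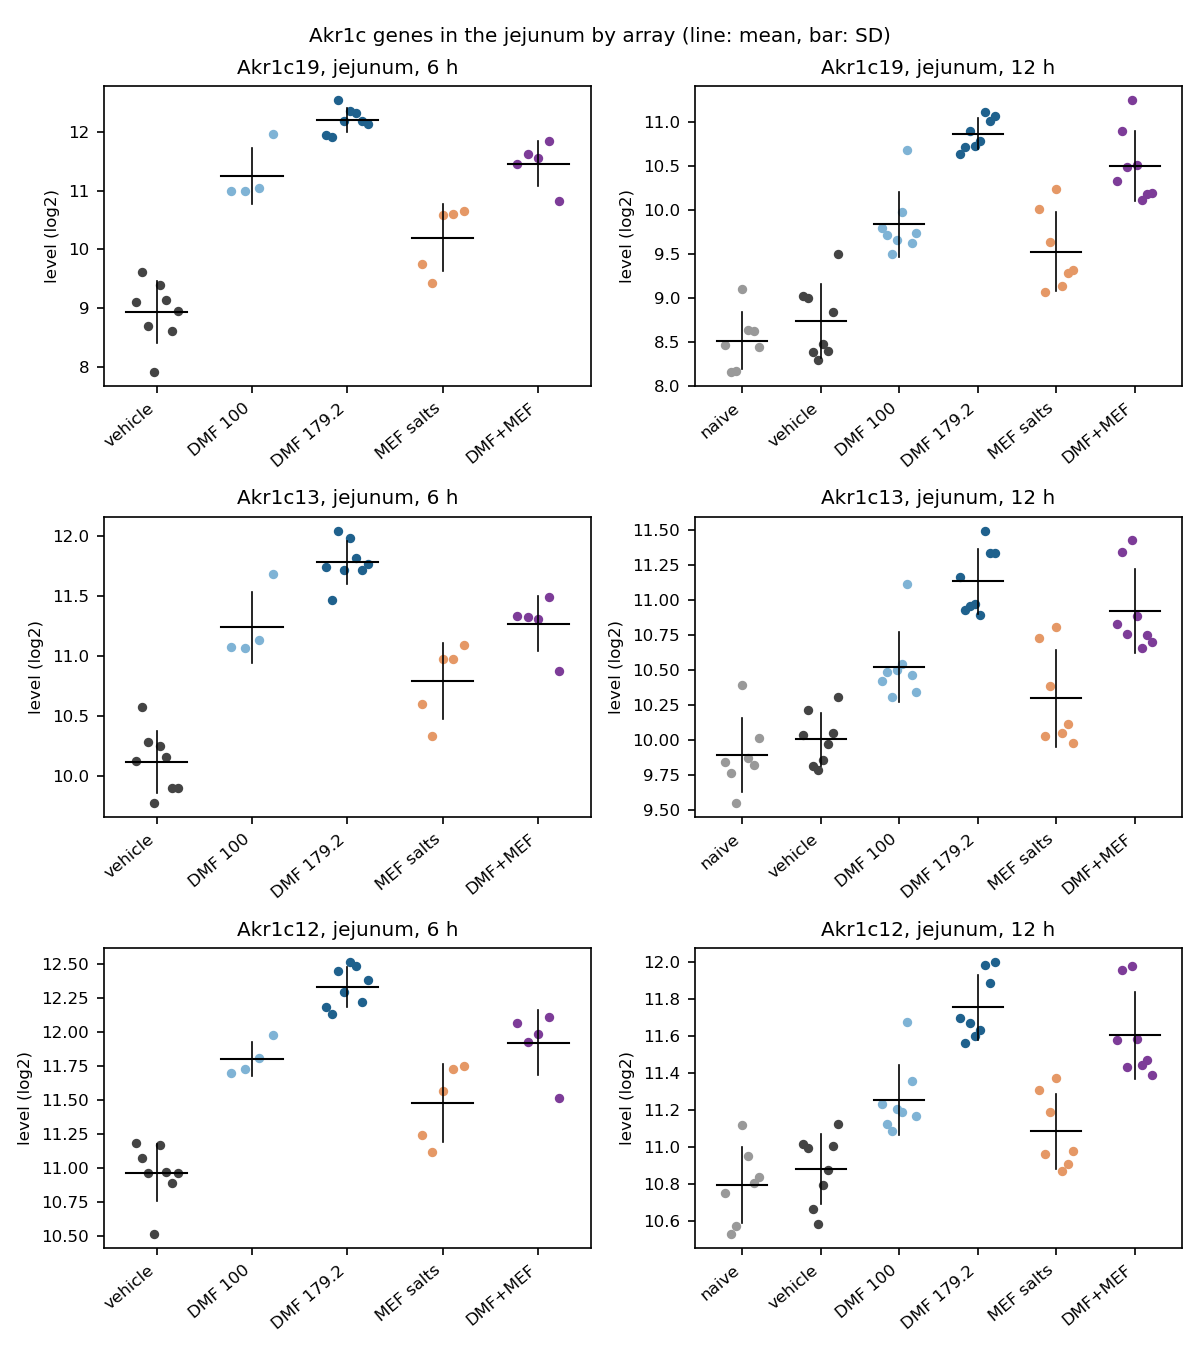
Levels (log2, vertical axis) of Akr1c19, Akr1c13 and Akr1c12 by group in the jejunum at 6 h (left) and 12 h (right); points are arrays, horizontal lines group means and vertical bars SD. DMF 179.2 and DMF plus MEF lie above vehicle with no overlap in all 6 panels, while MEF salts overlap vehicle in each.

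Of the other 3 genes, few comparisons were called in the jejunum. Akr1c14, a 3-alpha-hydroxysteroid dehydrogenase, was not called in any group at either time, with changes of -0.69, 0.30, 0.54 and -0.13 at 6 h and SEs of up to 0.39. Akr1a1, the aldehyde reductase that supports vitamin C synthesis in mice, was called at 6 h in DMF 179.2 alone, at 0.08 ± 0.03 (adjusted p = 0.0342). Akr7a5, which reduces succinic semialdehyde and aflatoxin dialdehyde, was not called at 6 h. At 12 h its vehicle arrays ran from 8.51 to 9.38, and changes of 0.37, 0.37 and 0.34 in DMF 179.2, MEF salts and DMF plus MEF were called (adjusted p = 0.0074, 0.0429 and 0.0245), with every group overlapping vehicle. Without the Hox arrays these were 0.18, 0.18 and 0.15, and none was called. A second probe set of Akr7a5 gave 0.15, 0.23, 0.30 and 0.24 at 12 h, none called.

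In all, 17 of 28 gene-by-group comparisons were called in the jejunum at 6 h and 13 of the 28 did not overlap vehicle. By group, 4, 5, 4 and 4 of the 7 genes were called, where 2.61%, 8.62%, 1.19% and 6.57% of all genes were called in the same comparisons. Without overlap were 4, 4, 1 and 4 of the 7, against 1.3%, 1.35%, 0.819% and 1.67% of all genes. At 12 h 16 of 28 were called and 10 did not overlap, with 3, 5, 3 and 5 genes by group against 0.632%, 7.4%, 0.813% and 3.45% of all genes. Of the 7, 1, 4, 1 and 4 did not overlap, against 0.135%, 0.772%, 0.111% and 0.357% of all genes. The distal intestine markers, 6 of 6 measured, had a mean of 2.95 to 5.08 in vehicle and 2.87 to 4.07 in the dosed groups at 12 h, and up to 3 of the 6 were called lower than vehicle. Beside the values given above, leaving out the 4 arrays with Hox genes gave Akr1c19 changes of 1.03 in DMF 100, 2.03 in DMF 179.2 and 1.66 in DMF plus MEF. It gave 1.10 and 0.89 for Akr1c13 and 0.88 and 0.73 for Akr1c12 in DMF 179.2 and DMF plus MEF, and all 7 were still called. At 12 h 0, 3, 2 and 2 of the 6 enterocyte markers were called higher than vehicle. The 2 ileum markers were not called, with median changes of -0.82, -1.97, -1.37 and -1.81, and their part in the results was not tested. At 6 h no distal intestine or ileum marker was called.

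In the kidney Akr1c19 rose in all 8 comparisons with vehicle, by 2.21- to 2.95-fold at 6 h. At 6 h vehicle ran from 8.77 over a median of 8.95 to 9.10 (n = 7), DMF 100 from 9.77 over 10.10 to 10.39 (n = 8), and DMF 179.2 from 10.20 over 10.44 to 10.71 (n = 8). MEF salts ran from 9.94 over 10.01 to 10.34 (n = 8), and DMF plus MEF from 10.16 over 10.49 to 10.62 (n = 7). No dosed array overlapped vehicle. The changes were 1.14 ± 0.08 (2.21-fold, adjusted p = 5.59e-18), 1.56 ± 0.08 (2.95-fold, 4.59e-25), 1.14 ± 0.08 (2.21-fold, 3.31e-18) and 1.54 ± 0.09 (2.92-fold, 3.6e-24). At 12 h vehicle ran from 7.79 over 7.92 to 8.33 (n = 8) and naive from 7.88 over 7.96 to 8.06 (n = 6). DMF 100 ran from 8.40 over 8.55 to 8.74 (n = 6), DMF 179.2 from 8.61 over 8.94 to 9.14 (n = 8), and MEF salts from 8.26 over 8.51 to 8.68 (n = 7), while the 4 arrays of DMF plus MEF read 8.96, 8.91, 9.36 and 9.10. MEF salts alone overlapped vehicle. The changes were 0.59 ± 0.09, 0.94 ± 0.08, 0.50 ± 0.08 and 1.10 ± 0.10, all called.

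Akr1b8 rose in the kidney too, by 1.48- to 2.04-fold at 6 h. At 6 h vehicle ran from 5.46 over 5.88 to 6.21 (n = 7), and DMF 100 from 5.93 over 6.42 to 6.76 (n = 8). DMF 179.2 ran from 6.41 over 6.87 to 7.35, MEF salts from 6.43 over 6.57 to 6.85, and DMF plus MEF from 6.47 over 6.84 to 7.31. DMF 100 overlapped vehicle and the other 3 groups did not. The changes were 0.57 ± 0.14 (1.48-fold, adjusted p = 0.00878), 0.96 ± 0.14 (1.95-fold, 2.24e-07), 0.77 ± 0.14 (1.71-fold, 0.000102) and 1.03 ± 0.15 (2.04-fold, 1.79e-07). At 12 h the changes were 0.60, 0.60, 0.39 and 0.81 (adjusted p = 0.0175, 0.00204, 0.0463 and 0.000443), with vehicle at 4.31 to 5.50 and every dosed group overlapping it. Without the vehicle array that carried adrenal markers they were 0.67, 0.67, 0.46 and 0.88, and the 20 calls of all members at 12 h stayed 20. Naive kidneys ran from 5.18 to 5.47, and every MEF array, at 5.20 to 5.47, lay within that range. Vehicle stood 0.30 below naive, which was not called (limma adjusted p = 0.0984). The MEF rise is therefore one over vehicle and not over naive mice.

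Akr1c12 and Akr1c13 were not called in the kidney at 6 h, with changes of 0.19 to 0.23 and 0.17 to 0.19. At 12 h Akr1c12 rose by 0.70 in DMF 179.2 (adjusted p = 4.58e-06), 0.53 in MEF salts (0.000485) and 0.93 in DMF plus MEF (4.82e-07), and was at 0.16, not called, in DMF 100. Its vehicle arrays ran from 7.06 to 7.69, those of DMF 179.2 from 7.71 to 8.64 and those of DMF plus MEF from 7.99 to 8.75, with no overlap. Akr1c13 rose by 0.52 in DMF 179.2 (adjusted p = 0.000255) and 0.78 in DMF plus MEF (3.83e-06), and MEF salts missed the threshold at 0.26 (adjusted p = 0.0739). DMF 179.2 overlapped vehicle for this gene and DMF plus MEF did not.

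Akr1c14 was the only member called lower than vehicle in any group. In the kidney at 12 h its vehicle arrays ran from 9.69 to 10.26 (mean 9.98 ± 0.19 SD, n = 8), and the 4 arrays of DMF plus MEF read 8.95, 9.54, 9.11 and 8.42. It fell by 0.50 in DMF 179.2 (adjusted p = 0.0114), by 0.73 in MEF salts (0.000101) and by 0.97 in DMF plus MEF (1.6e-05), and stood at -0.17 in DMF 100, not called. DMF 179.2 and DMF plus MEF did not overlap vehicle, and MEF salts did. Naive kidneys, at 8.75 to 9.54 (mean 9.04 ± 0.30 SD, n = 6), were all below the vehicle arrays and within the range of the DMF plus MEF arrays. Kidney proximal tubule markers kept a mean of 11.25 to 11.56 and collecting duct markers 9.25 to 9.62 over all groups at 12 h.

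Akr1a1, which is abundant in kidney, was called in 7 of 8 kidney comparisons with changes of 0.08 to 0.13. The SEs were 0.016 to 0.020, and MEF salts at 6 h, at 0.05, missed the threshold. Another summary of the Akr1a1 probe sets, their mean, turned the 12 h MEF change to -0.02. Akr7a5 was not called in the kidney. Of 28 comparisons, 11 were called at 6 h and 10 did not overlap vehicle, with 3, 3, 2 and 3 genes by group against 4.07%, 25%, 5.9% and 13.2% of all genes. Without overlap were 2, 3, 2 and 3 of the 7, against 1.3%, 7.18%, 2.23% and 3.98% of all genes, and 3 of these 10 comparisons were of Akr1a1. At 12 h 20 were called and 12 did not overlap, with 3, 6, 5 and 6 genes by group against 1.38%, 7.25%, 17.5% and 11% of all genes. Here 2, 4, 1 and 5 of the 7 did not overlap, against 0.509%, 1.17%, 3.73% and 5.39% of all genes, and 4 of these 12 comparisons were of Akr1a1.

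**Figure D4:**
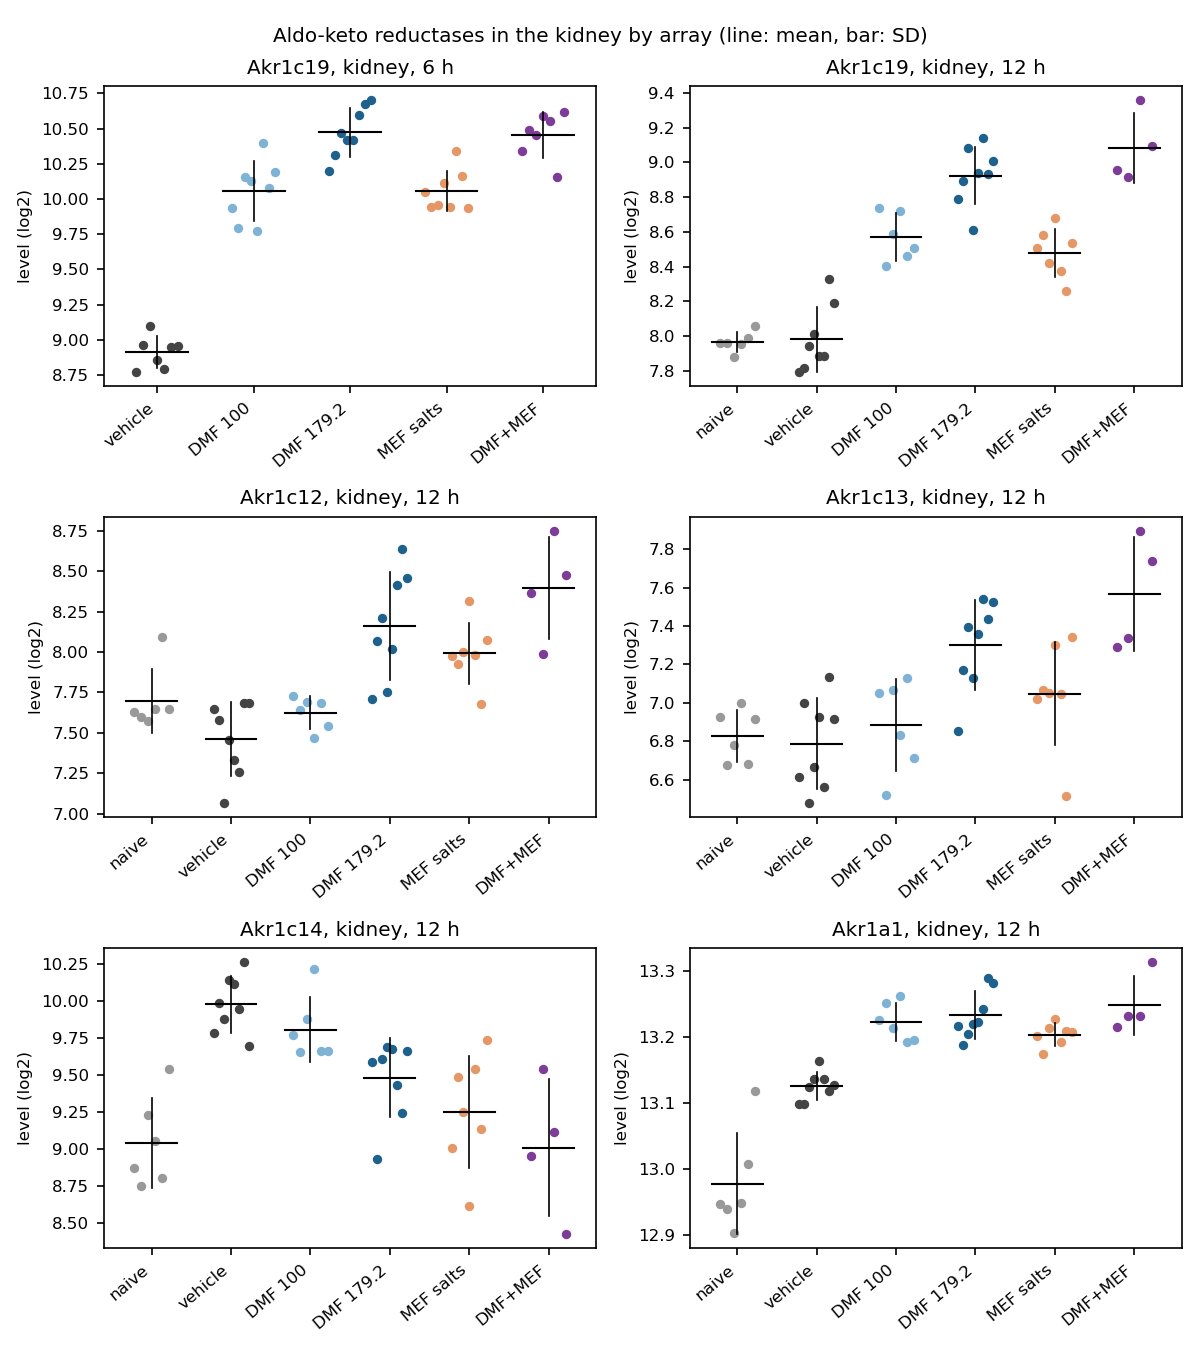
Levels (log2, vertical axis) in the kidney of Akr1c19 at 6 and 12 h and of Akr1c12, Akr1c13, Akr1c14 and Akr1a1 at 12 h; points are arrays, horizontal lines group means and vertical bars SD. Akr1c14 runs opposite to Akr1c12, Akr1c13 and Akr1c19, with vehicle highest and naive and DMF plus MEF lowest, and the Akr1a1 axis spans a far smaller range than the others.

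In the other 5 organs 7 of 280 comparisons were called, and the changes ran from -0.40 to 0.46. By limma no member was called in brain, mesenteric node or whole blood, where 4, 3 and 1 of 56 comparisons had an unadjusted p below 0.05. The shares of all genes called in these organs were 0.0117%, 7.2%, 0.123% and 0.105% at 6 h and 0.0234%, 1.31%, 0.0877% and 1.45% at 12 h in brain. In the mesenteric node they were 0.0234%, 0.392%, 0.00585% and 0.181%, then 0.0819%, 13.8%, 0.602% and 4.24%. In blood they were 0%, 0.0702%, 0% and 0.00585%, then 0.0351%, 0.322%, 0.00585% and 0.216%. Akr1c19 read the lowest value of the array on all 86 brain and all 78 blood arrays, and Akr1c14 on all blood arrays, so these probe sets gave no measure of a change there. Akr1b8 was near that floor in both organs, at 2.22 to 2.61 in brain and 2.24 to 2.62 in blood. In the inguinal node Akr1c19 was called in DMF 179.2 at 12 h (0.40 ± 0.09, adjusted p = 0.00251), but 18 of 36 arrays shared the value 2.79 and the groups overlapped. The shares of all genes called in this node were 0.0292%, 0.234%, 0.00585% and 0.433% at 6 h and 1.27%, 12.3%, 1.05% and 3.53% at 12 h.

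In the spleen Akr1a1 was higher in DMF 179.2 at 6 h (0.14, adjusted p = 0.00488) and in DMF plus MEF at 6 h (0.20, 0.008) and 12 h (0.21, 0.00503), and Akr1c12 was higher in DMF plus MEF at both times (0.32 each, 0.031 and 0.0383). Of all genes, 0.146%, 23%, 3.5% and 3.98% were called in the spleen at 6 h and 0.0175%, 0.474%, 0.924% and 3.36% at 12 h. Akr1c14 was called in DMF plus MEF at 6 h (0.46, adjusted p = 0.0434) on arrays that read 3.98, 4.54, 5.35 and 3.98 against 3.98 to 4.11 in vehicle. The highest of these, replicate 85, had hepatocyte markers at a mean of 10.20, and without it the Akr1c14 change was 0.17 and not called (adjusted p = 0.58). Arrays with acinar genes or albumin were spread unevenly over the groups. At 6 h they included vehicle replicates 52, 54, 56, 57 and 58 and DMF plus MEF replicates 84 and 85. They included no DMF 179.2 array at 6 h. At 12 h they included DMF plus MEF replicate 34 but no vehicle array. Leaving out all 20 spleen arrays with acinar genes or albumin gave 1 call at 6 h, against 4, and 0 at 12 h, against 2.

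Because every animal gave several organs, the Akr1b8 response of the jejunum was set against that of each other organ within animals. The DMF 179.2 effect in the jejunum exceeded that in the kidney by 4.02, in the spleen by 4.61, in the mesenteric node by 4.68 and in the inguinal node by 4.82 at 6 h. At 12 h the differences were 3.82, 4.24, 4.29 and 4.31 in the same order. In brain and blood Akr1b8 lay near the lowest level of the arrays, where a change could hardly be read, so their differences describe the jejunum alone. In the inguinal node 22 of 37 arrays shared the value 3.27 at 6 h and 17 of 36 the value 4.19 at 12 h. A change could hardly be read there either. Mesenteric node arrays shared a repeated value less often, on 11 of 40 at 6 h and 15 of 48 at 12 h. In all 12 comparisons every dosed animal's difference lay above every vehicle animal's. Exact permutation tests over animals, two-sided, gave adjusted p-values of at most 0.00952, and each raw p was the smallest its number of animals allowed. The inguinal node at 12 h rested on 6 dosed and 4 vehicle animals. Without the animals whose jejunum carried Hox genes that difference was 3.70 on 2 vehicle animals and could not reach the threshold (exact permutation p = 0.0714), while the other 11 stayed below it.

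Dosed groups were compared where they shared an ingredient or the total mass given, in 4 contrasts at 2 times in 7 organs, and 24 member comparisons were called in the jejunum and kidney, with p-values adjusted over all genes within each contrast. Raising DMF from 100 to 179.2 mg/kg changed Akr1b8 in the jejunum by 1.56 ± 0.25 at 12 h (2.94-fold, adjusted p = 0.000154), while the 6 h difference of 0.45 (95% interval -0.17 to 1.07) was not called. At 12 h Akr1c19, Akr1c13 and Akr1c12 also differed between these doses, by 1.03, 0.61 and 0.50 (adjusted p = 0.00401, 0.0171 and 0.00943). In this contrast 0.316% of all genes were called at 6 h, where Akr1c12 alone among the members passed at 0.53, and 0.152% at 12 h. In the kidney Akr1c19 differed by 0.42 at 6 h (adjusted p = 0.000258, against 9.15% of genes) and 0.36 at 12 h (0.0284, against 0.55%), while Akr1b8 was not called at either time.

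Adding MEF salts to DMF 100 gave jejunal Akr1b8 a difference of -0.05 at 6 h (95% interval -0.73 to 0.63, not called, against 0.123% of genes) and of 1.22 ± 0.25 at 12 h (2.32-fold, adjusted p = 0.0226, against 0.0877%). That call was lost without the Hox arrays (1.19, adjusted p = 0.0587). In the kidney the addition raised Akr1c19 by 0.40 at 6 h (adjusted p = 0.00256, against 1.63%) and 0.51 at 12 h (0.000779), with Akr1c12 at 0.77, Akr1c13 at 0.68 and Akr1c14 at -0.80 at 12 h, all called, against 4.26%. Adding DMF to MEF salts raised jejunal Akr1b8 by 2.49 ± 0.32 at 6 h (adjusted p = 3.89e-07, against 0.158%) and 1.95 ± 0.26 at 12 h (9.45e-07, against 0.0994%). Akr1c19 rose in the same contrast by 1.26 and 0.97, and in the kidney by 0.40 and 0.60 (against 1.35% and 2.23%).

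DMF plus MEF and DMF 179.2 were given at the same total mass of 179.2 mg/kg. It was a diester with salts of a monoester in one case and the diester alone in the other. The mass of the salts includes their metals, so the mass of ester was not matched. Among the 7 genes none was called between them in jejunum or kidney. For Akr1b8 the differences were -0.49 (95% interval -1.07 to 0.09) and -0.34 (-0.85 to 0.17) in the jejunum at 6 and 12 h, and 0.07 (-0.22 to 0.35) and 0.21 (-0.13 to 0.55) in the kidney. For Akr1c19 the jejunum gave -0.74 (-1.19 to -0.29, adjusted p = 0.207) at 6 h and -0.37 (-0.77 to 0.02) at 12 h, and the kidney -0.02 (-0.18 to 0.15) and 0.16 (-0.04 to 0.35). In the spleen 3 more comparisons between dosed groups were called: Akr1c12 (0.31) and Akr1c14 (0.65) were higher in DMF plus MEF than in DMF 179.2 at 6 h, against 5.11% of genes, and Akr1a1 (0.20) was higher in DMF plus MEF than in DMF 100 at 12 h, against 0.971%. Without the spleen arrays with acinar genes or albumin the Akr1c14 difference was 0.17 and not called (adjusted p = 0.882). Between DMF plus MEF and DMF 179.2, 0.123% and 0.0526% of genes were called in the jejunum, and 13.2% and 0.433% in the kidney. DMF at 100 mg/kg and MEF salts at 79.2 mg/kg differ in both compound and dose, so they stand side by side without a test: Akr1b8 changed by 4.40 and 1.86 in the jejunum at 6 h, and by 0.57 and 0.77 in the kidney.

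The effect at 12 h minus that at 6 h was called for 11 member comparisons. The arrays at 6 h and 12 h also differed in level. The median of the gene means was 6.31 at 6 h and 5.56 at 12 h in the kidney, and 6.54 and 6.11 in the jejunum. What this does to the differences was not tested. Kidney Akr1c19 had a smaller effect at 12 h in all 4 groups, by -0.56, -0.62, -0.65 and -0.44 (adjusted p = 0.0123, 0.000178, 0.000193 and 0.042, against 0.404%, 7.14%, 7.38% and 2.8% of genes). Its neighbours went the other way in the kidney: Akr1c12 had a larger effect at 12 h in DMF 179.2 (0.50) and DMF plus MEF (0.71), and Akr1c13 in DMF plus MEF (0.59), while Akr1c14 went down further there (-0.85). With the animal's place as a covariate the count of such calls was 7. In the jejunum DMF 179.2 had a smaller effect at 12 h on Akr1c19 (-1.14, adjusted p = 0.0123) and Akr1c12 (-0.50, 0.0361), and the shares of genes called were 0.0175%, 3.15%, 0.0175% and 0.333%. The inguinal node gave 0.38 for Akr1c19 in DMF 179.2 (adjusted p = 0.0441, against 3.83%). The difference in Akr1b8 effect between the times passed the threshold in no group of jejunum or kidney. In the jejunum it was -1.53 in DMF 100 (95% interval -2.33 to -0.73, adjusted p = 0.141), and -0.42, 0.27 and -0.27 in the other groups.

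Vehicle and naive mice differed in some members. Against naive mice at 12 h, vehicle was lower in jejunal Akr1b8 (-0.97 ± 0.26, adjusted p = 0.0164) and Akr7a5 (-0.43 ± 0.10, 0.00374), where 5.44% of genes were called. In that comparison 3 of 6 distal intestine markers and 1 of 2 ileum markers were higher in vehicle. Without the Hox arrays the Akr1b8 difference was -0.78 (adjusted p = 0.31) and that of Akr7a5 was -0.24, neither called. In the kidney, where 46% of genes were called, vehicle was higher in Akr1c14 (0.94 ± 0.15, adjusted p = 1.67e-07) and Akr1a1 (0.15), and lower in Akr7a5 (-0.29). Spleen, with 3 naive arrays and 18.3% of genes called, gave -0.26 for Akr1a1, -0.39 for Akr1c12 and -0.42 for Akr7a5. Of these naive arrays, replicate 47 carried albumin, and the values without it are not given. With the mean of its probe sets the Akr1a1 difference in the spleen changed sign. The mesenteric node gave -0.19 for Akr7a5, against 24.4%.

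Within groups, the jejunum arrays showed how Akr1b8, Akr1c19, Akr1c13 and Akr1c12, picked because they rose there, varied together from animal to animal. Each array's deviation from its own group mean was taken over the 76 jejunum arrays, which removes the difference between group means, and 6 pairs of genes were compared by permutation within groups. Akr1c19 and Akr1c13 had r = 0.894 and rho = 0.869, Akr1c19 and Akr1c12 had 0.891 and 0.887, and Akr1c13 and Akr1c12 had 0.888 and 0.893, each with a permutation p of 1e-05, the smallest 100000 draws can give (2e-05 adjusted over the 6 pairs). These held at both times, with r from 0.833 to 0.923, and without the 2 farthest arrays, with r from 0.868 to 0.890. Akr1b8 was tied to them more loosely: r was 0.405 with Akr1c19, 0.413 with Akr1c13 and 0.474 with Akr1c12, with adjusted permutation p of at most 0.001, and 0.310, 0.305 and 0.402 without the 2 farthest arrays. At 6 h those correlations were 0.016, -0.130 and 0.143 over 30 arrays, against 0.651, 0.671 and 0.650 over 46 arrays at 12 h, so for Akr1b8 the relation did not hold at 6 h. Probe sets of Akr1c12 and Akr1c13 could pick up each other's transcripts, as the genes are near-identical copies, which was not tested. Over the 72 arrays without Hox genes, r was 0.894 to 0.909 among the Akr1c pairs and 0.399 to 0.496 with Akr1b8. No other genes were correlated in this way, so how common such ties are in the jejunum is not known. The part of the piece of intestine taken was not tested.

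**Figure D5:**
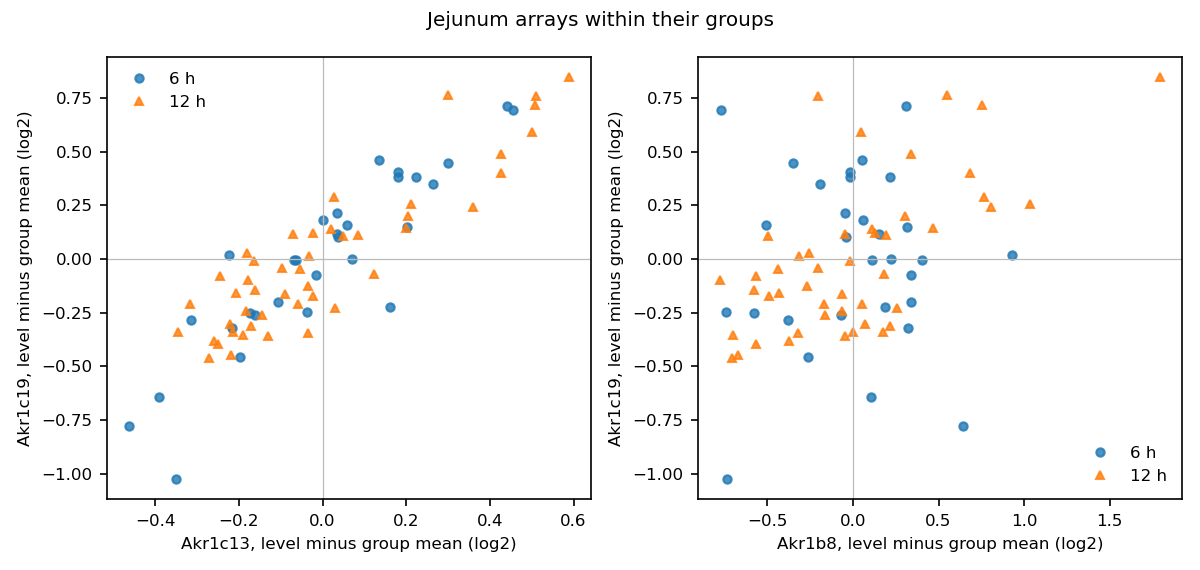
Deviation of each jejunum array from its group mean (log2) for Akr1c19 (vertical axes) against Akr1c13 (left) and Akr1b8 (right); circles are 6 h and triangles 12 h arrays. The left panel is close to a line at both times, and in the right panel only the 12 h triangles slope upward.

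Over the 56 changes from vehicle, a description that shares vehicle groups and has no test, the genes most like Akr1b8 were Ces1e (Pearson r = 0.973), Gsta2 (0.953), Ces1g (0.952), Gstm6 (0.947) and Ugt2b35 (0.947), which code for carboxylesterases, glutathione transferases and a glucuronosyltransferase. Among the members, Akr1c19 came 8th of all genes (0.915), Akr1c13 11th (0.895) and Akr1c12 22nd (0.839), while Akr7a5 (0.339), Akr1a1 (-0.096) and Akr1c14 (-0.147) did not follow. Ces1e changed by 1.70, 2.19, 1.13 and 1.75 in the jejunum at 6 h and by 0.10 to 0.28 in the kidney. Akr1b8 itself changed by 1.86 to 4.85 in the jejunum, 0.39 to 1.03 in the kidney and 0.08 to 0.29 in the spleen. The correlations with Akr1b8 therefore rest largely on the jejunum against the other organs. The genes most like the others were Ces1g for Akr1c19 (0.963), Akr1c12 and Akr1c13 for each other (0.935), Foxi1 for Akr1c14 (0.698), Coro1b for Akr1a1 (0.760) and Khk for Akr7a5 (0.767).

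The wider pathway was described with 4 gene lists. They were chosen with earlier results of these data known, so their counts are a description and no independent support. Of 28 NRF2 target genes 25 were measured, and 15, 22, 4 and 17 rose in the jejunum at 6 h and 12, 18, 3 and 16 at 12 h, with medians of 0.56, 0.98, 0.31 and 0.54 and of 0.27, 0.46, 0.15 and 0.43. In the kidney 23, 23, 24 and 24 rose at 6 h and 15, 19, 17 and 21 at 12 h, with none lower in either organ and a median over all genes of 0.00. The shares of all genes called in either direction in the jejunum were 2.61%, 8.62%, 1.19% and 6.57% at 6 h. At 12 h they were 0.632%, 7.4%, 0.813% and 3.45%. In the kidney they were 4.07%, 25%, 5.9% and 13.2% at 6 h, then 1.38%, 7.25%, 17.5% and 11%. With MEF salts at 6 h, 4 of the 25 were called in the jejunum, on 5 MEF arrays, and 24 in the kidney, on 8. Over the 4 lists the largest change was that of Cbr3, a carbonyl reductase outside the aldo-keto family. It was 6.25 in the jejunum with DMF 179.2 and 4.68 in the kidney with DMF plus MEF, both at 6 h. In the jejunum Ces1g (3.84 at 6 h), Gsta2 (3.09) and Gstm1 (2.65) followed, the last 2 with DMF 179.2 at 12 h. In the kidney Hmox1 (4.16), Gstm3 (2.57) and the aldehyde dehydrogenase Aldh1a7 (1.85) followed, with DMF plus MEF at 6 h. Aldh1a7 is from the list for aldehyde and alcohol conversion, and the other genes named are from the NRF2 list.

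Of 9 other aldo-keto reductase genes 7 were measured, and in the jejunum at 6 h 1, 1, 0 and 1 rose and none fell, where 2.61%, 8.62%, 1.19% and 6.57% of all genes were called in either direction. These few are named after their values were seen: Akr1d1 rose by 0.53 in DMF 100, and Akr1b10 by 0.45 in DMF 179.2 and 0.43 in DMF plus MEF. RefSeq places Akr1b10 beside Akr1b8 on chromosome 6. In the kidney at 12 h with DMF plus MEF, Akr1c18, which lies between Akr1c14 and Akr1c13, fell by 0.56, against 11% of all genes called. Of 12 other genes for aldehyde and alcohol conversion, 1, 4, 0 and 3 rose in the jejunum at 6 h, against the same shares of all genes. Of 6 measured polyol pathway and osmotic response genes, 1 fell in the jejunum at 6 h, in DMF 100, where 2.61% of all genes were called. In the kidney at 6 h with DMF 179.2, 3 of the 6 fell, where 25% of all genes were called.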

How the data were processed

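Expression was measured on 1 array type, 1 array for each animal and organ. The deposited values are log2 levels that the authors had already normalized. The submitters' processing notes name RMA and GCRMA beside R 2.11.1 and limma 3.4.5, without saying which step each did. Of 45141 probe sets, 28898 were annotated to 1 gene, 551 to several and 15588 were unnamed. The number of animals limits the precision, and the lowest value of an organ and time lay between 2.12 and 2.25.

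Groups came from the sample titles. limma 3.58.1 (R 4.3.3) fitted 1 mean per group to the arrays of each organ, both times together, with eBayes and Benjamini-Hochberg adjustment over 17097 genes, and calls were made below 0.05. The fit was tested on simulated data for the jejunum and kidney designs. These had independent normal noise and no repeated or lowest values, so the test does not cover dim probe sets or arrays with foreign tissue. Intervals are 95%. Permutations and promoter searches used Python 3.11.15 (scipy 1.17.1, Biopython 1.88). Members got values per array where a called change reached 1, and from the lists up to 4 called genes with the largest change per organ were named. Members and lists were chosen with earlier results of these data known. Alternatives were quantile normalization, a trend with robust variances, the mean of all probe sets, dim genes left out, the place of the animal number in runs of 12 as a covariate or matched, fits of the groups compared alone, single animals left out, and arrays with foreign tissue left out. Leaving out the adrenal array, Hox arrays together with the place covariate, and the values of other probe sets were added after the data were seen.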

Additional observations from a re-analysis of the deposited data

Results flagged for a closer look

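Over jejunum and kidney, 7 of 54 gene and group sets, all 7 in the jejunum, held 1 array far from the rest of its group. Chance alone gives about 1 in 20 for a single set. The sets are not independent, because replicates 14 and 64 recur among the 7 and some genes vary together within groups. The count of 7 was therefore not weighed against that rate. In DMF 100 at 12 h, replicate 14 was the highest array for Akr1b8 at 9.388 (others 6.82 to 7.71), for Akr1c13 at 11.109 (others 10.31 to 10.54) and for Akr1c19 at 10.684 (others 9.50 to 9.98). In DMF 100 at 6 h, replicate 64 was the highest for Akr1c13 at 11.682 (others 11.07 to 11.14) and Akr1c19 at 11.965 (others 10.99 to 11.05). The lowest vehicle array for Akr1c12 at 6 h, replicate 54, read 10.51 (others 10.89 to 11.19), and the lowest naive array for Akr1b8, replicate 41, read 5.262 (others 5.65 to 5.88).

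The effect of a treatment differed between 6 and 12 h in 11 cases, given here as the 12 h effect minus the 6 h effect. Kidney Akr1c19 differed by -0.556 in DMF 100, -0.618 in DMF 179.2, -0.646 in MEF salts and -0.444 in DMF plus MEF. Kidney Akr1c12 differed by 0.504 in DMF 179.2 and 0.708 in DMF plus MEF, and in the latter group Akr1c13 differed by 0.587 and Akr1c14 by -0.851. In the jejunum with DMF 179.2, Akr1c19 differed by -1.142 and Akr1c12 by -0.499. In the inguinal node with DMF 179.2, Akr1c19 differed by 0.381, on levels near the array's lowest value.

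The Akr1b8 effect of DMF 179.2 in the jejunum was set against that in each other organ, where brain and blood read near the lowest level of the arrays and bear only on the jejunum. Many inguinal node arrays shared a repeated value, which limits that comparison too. At 6 h the difference was 4.785 against brain, 4.816 against the inguinal node, 4.022 against kidney, 4.682 against the mesenteric node, 4.605 against spleen and 5.005 against whole blood. At 12 h it was 4.459, 4.306, 3.824, 4.29, 4.241 and 4.204 in the same order.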

How the results depend on the processing

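Of 118 called member results, 118 kept their direction and call with a variance trend and robust fit, 113 with quantile normalization, 108 with the mean of all probe sets and 100 with place as a covariate. With place, calls for the time difference went from 11 to 7. Fits on the groups compared alone gave 9 calls in the jejunum at 12 h (from 16), 0 in the inguinal node at 12 h (from 1) and 1 in the spleen at each time (from 4 and 2). Comparing animals of shared places alone, with far fewer animals, gave 4 in the jejunum at 6 h (from 17) and at 12 h, 7 and 4 in the kidney at 6 and 12 h (from 11 and 20), and 0 in inguinal node and spleen. Leaving out Hox arrays with place as a covariate gave 10 in the jejunum at 12 h. In the inguinal node at 12 h the count was 0 without dim genes, 2 with mean probe sets and 2 with place, and 1 to 2 over single animals left out (2 without vehicle replicate 8). In the mesenteric node at 12 h it was 1 with quantile normalization or mean probe sets (from 0), and in the brain at 6 h 1 with mean probe sets (from 0). Spleen counts at 6 h were 2 with quantile normalization, 0 with place, 1 without arrays with acinar genes or albumin and 2 to 4 over single animals left out. At 12 h they were 1 with quantile normalization, 1 with mean probe sets, 0 without those arrays and 1 without any single animal. Over single animals left out, calls were 15 to 17 in the jejunum at 6 h and 20 in the kidney at 12 h. The Akr1b8 difference between jejunum and inguinal node at 12 h was 3.699 without Hox arrays and lost its call, on fewer animals. With mean probe sets the Akr1a1 change in the kidney with MEF salts at 12 h turned to -0.019, and that between vehicle and naive in the spleen to 0.162. Elsewhere the cause was not tested. No paired analysis was possible because, within an organ, the groups compared share no animal numbers. Signal near the array's lowest value limits Akr1c19 and Akr1c14 outside jejunum and kidney, Akr1b8 in brain and blood, and Akr1c13 in brain. A repeated value on many arrays limits Akr1b8 in the inguinal node and, less so, in the mesenteric node.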
